A study of Mus musculus with 23 samples.

Results

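The PGC1 coactivators and the transcription factors that act with them in mitochondrial biogenesis were followed by RNA-seq in the brown adipose tissue (BAT) of mice at room temperature (RT) and in the cold. The 9 genes were taken by symbol from a table of 14651 genes, and all 9 were present in it. They are Ppargc1a, Ppargc1b and Pprc1 (the coactivators PGC1α, PGC1β and PRC), Esrra and Esrrg (the estrogen-related receptors ERRα and ERRγ), Nrf1, Gabpa (the DNA-binding subunit of NRF2, also called GABP), Tfam and Nrip1 (the corepressor RIP140). The BAT of 23 male C57BL/6 mice, 8 to 12 weeks old, was sequenced in 4 groups: 6 control mice and 6 BAT-Mcu-KO mice stayed at RT, while 5 control mice and 6 BAT-Mcu-KO mice spent 6 h at 4°C. All mice carried Mcu[fl/fl], a floxed allele of the pore subunit of the mitochondrial calcium uniporter, and BAT-Mcu-KO mice carried in addition Ucp1-Cre, in which the Ucp1 promoter drives Cre in brown adipocytes. Control mice had no Cre transgene, so loss of Mcu and presence of the transgene cannot be told apart, and the other cells of the tissue keep Mcu in both genotypes. The cold protocol gave each mouse its own chilled cage lacking bedding, and food was withheld as a rule. Group housing was the general rule. The caging, bedding and food access of the mice at RT during the experiment are not given in the sources used here. Cold therefore cannot be told apart from single housing, lack of bedding or food access.

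PGC1 coactivators do not bind DNA themselves. They are recruited to promoters by nuclear receptors and by factors such as ERRα, ERRγ, NRF1 and NRF2. Together these switch on the nuclear genes of oxidative phosphorylation and the gene for TFAM. The TFAM protein packages mitochondrial DNA and helps to start its transcription. In brown fat, noradrenaline released in the cold acts through β-adrenergic receptors, cAMP and CREB to induce PGC1α, which also coactivates the gene of the uncoupling protein Ucp1. RIP140 acts on the same receptors in the opposite sense and represses oxidative genes in fat.

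The depth was 7129271 to 21006347 counted reads per mouse. The values below are normalized counts, that is, reads divided by the size factor of the library, and a gene was called when the limma test across all 14651 genes gave an adjusted p under 0.05. Counted over all its exons, Mcu had 70.8 to 136 normalized counts in the 11 control mice and 15.2 to 42.4 in the 12 BAT-Mcu-KO mice. A transcript without the floxed exon is still counted here. Ucp1, the defining brown adipocyte gene, was at 50590 to 198043 in every mouse, and 0 of 8 brown adipocyte markers were at 0 in any mouse. By cold, 4 of these 8 were called higher and 2 lower in control mice, beside 22.3% and 23.7% of all genes. In BAT-Mcu-KO mice 3 were called higher and 0 lower, beside 21.4% and 21.9%. Among control mice the means of Ucp1, Dio2, Adrb3, Plin1 and Elovl3 were higher at 4°C. Those of Cidea (49560 to 39298), Adipoq (15438 to 11880) and Fabp4 (72466 to 60710) were lower. The summed level of 9 skeletal muscle markers varied from 13.7 to 45666 between mice and exceeded 25000 in 5 of them, control mice 2 and 5 at 4°C and BAT-Mcu-KO mice 3, 4 and 6 at RT. In each group 3 to 8 of these 9 were at 0 in at least 1 mouse. The sum of 4 endothelial markers was 2437 to 3699 at RT and 4255 to 7352 at 4°C over both genotypes, so the 2 temperatures did not overlap. In each genotype 2 of the 4 were called higher by cold. In control mice the mean went from 1211 to 2335 for Pecam1, 1024 to 2233 for Kdr, 517 to 659 for Cdh5 and 474 to 472 for Tek. In BAT-Mcu-KO mice it went from 1164 to 2097, 938 to 2008, 569 to 586 and 498 to 453 in the same order. Of 5 macrophage markers, 3 were called higher by cold in BAT-Mcu-KO mice (Cd68 0.83, Lyz2 0.45 and Mrc1 0.62 on the log2 scale) and 0 in control mice, while the limma test of a difference in the cold effect between the genotypes, given further on, called 0 of them. Their summed level was 404 to 730 (RT) against 718 to 1072 (4°C) for BAT-Mcu-KO mice, and its median was 623 against 675 for control mice. Of 4 fibroblast markers Dcn was called higher, and of 4 Schwann cell markers Mbp lower, with cold in BAT-Mcu-KO mice. Each is 1 of 4 markers, near the 21.4% of all genes called higher and the 21.9% called lower there. Neither is a result about those cells. The part of these markers in the cold results of BAT-Mcu-KO mice was not tested. In bulk tissue, fewer cells of a type and less RNA per cell cannot be told apart.

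Before the values, the promoter sequences that bear on the members are shown, from RefSeq windows of 300 bases on GRCm38.p6 that hold 250 bases before and 50 after each transcript start. Windows were found for 8 of the 9 members, 13 windows in all, and Ppargc1b was missing. The 250 bases before the start of Ppargc1a (chr5:51567726-51567975, minus strand) are shown because Ppargc1a carried the largest difference of the 9. Capitals mark the core of the cAMP response element, the site that CREB binds, which lies on the opposite strand with its first printed base at -49 from the start.
Ppargc1a: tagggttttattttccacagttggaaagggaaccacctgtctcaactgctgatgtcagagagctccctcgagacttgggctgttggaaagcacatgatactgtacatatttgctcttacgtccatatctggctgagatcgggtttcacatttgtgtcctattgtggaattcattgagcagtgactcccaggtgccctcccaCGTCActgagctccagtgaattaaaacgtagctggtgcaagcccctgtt
The core, TGACG on either strand, was in 1 of the 13 member windows, that of Ppargc1a, and in 20.8% of all 32851 windows. The full palindromic element, TGACGTCA, which contains the core, was in 0 of the 13 and in 1.79% of all windows.

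The core bound by GABP, CCGGAAG on either strand, was in 2 of the 13 member windows, against 8.86% of all windows. The 30 bases around each match are shown because Gabpa encodes the factor that binds this core and Tfam is known as one of its targets. Capitals mark the core, which starts at -93 from the RefSeq transcript start of Gabpa (chr16:84835020-84835049, plus strand, core on the opposite strand) and at -47 from that of Tfam (chr10:71238073-71238102, minus strand, core on the printed strand). Both stretches lie inside the gene bounds of GENCODE M21, whose gene starts are further upstream.
Gabpa: gagggtaagtgCTTCCGGgtccctcagcta
Tfam: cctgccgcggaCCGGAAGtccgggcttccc
The ERR core AAGGTCA was in 0 of the 13 (4.72% of all windows). A stretch of the NRF1 site, GCGCATGC on either strand, was in 1 of the 13, that of Esrra (2.71% of all windows). These are matches of letters within short windows.

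Divided by exon length, the levels of the 9 genes could be set in order, and cold changed which coactivator led it. In control mice at RT, Ppargc1b was the highest, at 219 ± 33.7 normalized counts per kb (SD, n = 6), and its range stood apart from that of Tfam at 138 ± 9.79. Gabpa (94.4), Esrrg (89.7), Ppargc1a (86.9) and Esrra (62.4) followed, each overlapping its neighbour. Nrip1 (27.4) and Nrf1 (20.1) overlapped, and Pprc1 was the lowest, apart from the rest, at 8.29 ± 1.81. BAT-Mcu-KO mice at RT had the same order, led by Ppargc1b at 212 ± 68.7, whose range there overlapped that of Tfam at 129 ± 11.7.

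At 4°C the level of Ppargc1a per kb was the highest of the 9, at 2928 ± 665 in control mice (n = 5) and 1619 ± 332 in the knockout (n = 6), apart from Ppargc1b at 261 ± 43.1 and 256 ± 30.1. Per kb, Ppargc1a made up 27.4% ± 7.12 of the 3 coactivators in control mice at RT and 90.9% ± 2.52 at 4°C. For BAT-Mcu-KO mice these shares were 27.3% ± 3.40 and 85.4% ± 2.78. Per kb, control mice held 0.291 to 0.694 times as much Ppargc1a as Ppargc1b at RT and 7.34 to 15.4 times as much at 4°C. The BAT-Mcu-KO mice at 4°C held 4.30 to 7.49 times as much, which overlaps the lower end of the control range. Of the ERR receptors, Esrrg led at RT and Esrra at 4°C on average. The ratio of Esrra to Esrrg per kb was 0.736 ± 0.199 at RT and 1.98 ± 0.981 at 4°C in control mice, and the BAT-Mcu-KO mice gave 0.728 ± 0.266 and 1.66 ± 0.454. These per-length values are descriptions with no test, and they use exon lengths of a later annotation release than the counts.

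**Figure D1:**
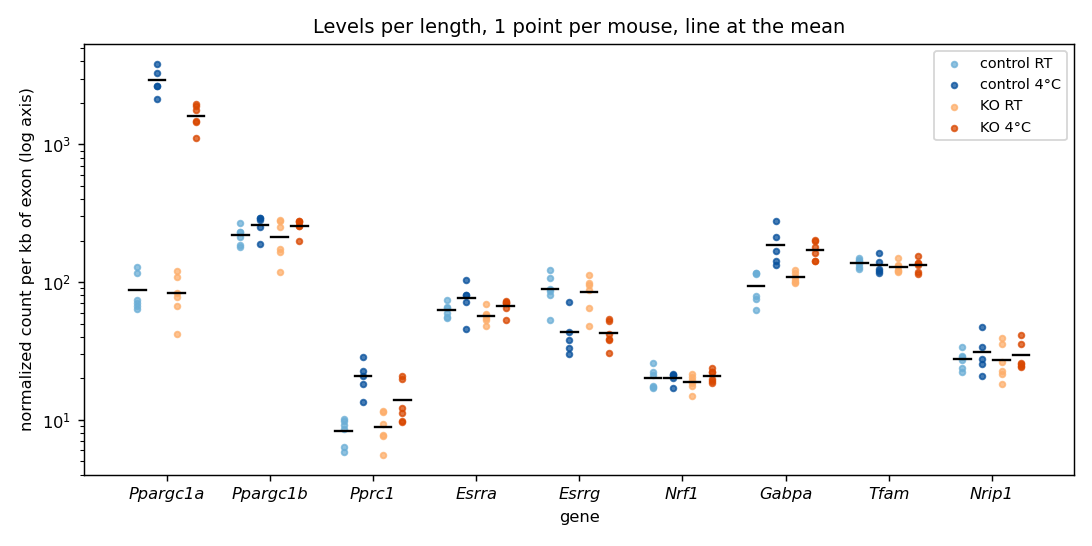
Normalized count per kb of exon (log axis) of the 9 genes, 1 point per mouse, with a line at the mean of each of the 4 groups. Ppargc1a moves from the middle of the order at RT (mean 86.9 in control) to the top at 4°C (2928 for control and 1619 for BAT-Mcu-KO mice), while the group means of Ppargc1b stay between 212 and 261.

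Cold changed 4 of the 9 genes in control mice. Ppargc1a, Pprc1 and Gabpa rose and Esrrg fell. In the same comparison 46.0% of all genes were called, 22.3% higher and 23.7% lower, so 4 of 9 is near the share of all genes and is not a result about the group as a whole. The same 4 genes were called, in the same directions, in BAT-Mcu-KO mice, where 43.3% of all genes were called, 21.4% higher and 21.9% lower. DESeq2 (46.9% of all genes called for control and 45.2% for BAT-Mcu-KO mice) and edgeR (46.3% and 44.4%) on the recovered reads also called these 4 in each genotype. With 75th percentile scaling the median log2 change over the whole table in control mice went from -0.02 to -0.14 and the higher share of its calls from 48.5% to 37.1%, and the 4 members kept their direction and call.

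Ppargc1a (chr5:51454250-51567726, GRCm38, minus strand) had a normalized count of 419 to 851, with a median of 476, in control mice at RT. In control mice at 4°C it was at 25446, 17496, 14141, 17610 and 21818. Every control mouse in the cold was thus more than an order of magnitude above every control mouse at RT. The change was 5.10 on the log2 scale (SE 0.23, 95% interval 4.64 to 5.57, limma, adjusted p = 1.95e-14), which is 34.3-fold (24.9 to 47.4). It ranked 2 among all genes by p-value and 14 by the size of the rise. In BAT-Mcu-KO mice Ppargc1a was at 275 to 795 (median 533) at RT and at 7278 to 13022 (median 10765) at 4°C. The rise was again free of overlap, 4.33 on the log2 scale (SE 0.22, limma, adjusted p = 1.08e-13) or 20.1-fold (14.8 to 27.4). Groups did not overlap for 25.2% of all genes for control and 24.2% for BAT-Mcu-KO mice. The control mice with the lowest muscle marker sums at 4°C, mouse 1 (22.3) and mouse 3 (13.7), had the highest and the lowest Ppargc1a of their group. Without the 5 libraries of high muscle sum the rise was 5.07 for control and 3.97 for BAT-Mcu-KO mice. The endothelial marker sum was also higher at 4°C than at RT without overlap, though the mean of Tek was not higher in either genotype. The part of muscle and endothelial cells in this and the other cold results was not tested. Gene counts do not separate the isoforms of Ppargc1a that start at different promoters.

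Pprc1 (chr19:46044886-46072915, plus strand), the coactivator that responds to serum and growth signals, had the fewest reads of the 9, 37 to 224 per mouse. In control mice it was at 36.5 to 63.2 (median 55.5) at RT and at 85.0, 114, 131, 142 and 180 at 4°C. All 5 mice in the cold were above all 6 at RT. The rise was 1.29 on the log2 scale (SE 0.24, limma, adjusted p = 7.37e-05), or 2.45-fold. The BAT-Mcu-KO mice had 34.8 to 73.3 (median 53.3) at RT and 60.5 to 131 (median 73.4) at 4°C, where only mice 3 and 4 were above 100. The rise there was 0.61 (SE 0.23, limma, adjusted p = 0.0301). This call was lost when BAT-Mcu-KO mouse 2, 3 or 6 at RT or mouse 3 or 4 at 4°C was left out, with adjusted p up to 0.0924, and without the libraries of high muscle sum (0.39, adjusted p = 0.295), where calls over all genes went from 6349 to 4708.

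Ppargc1b, whose product coactivates many of the same receptors as PGC1α, showed no called difference with cold. It was at 716 to 1079 (median 890) in the control mice at RT and at 997, 759, 1166, 1129 and 1155 at 4°C. The range was 471 to 1130 (median 851) for the knockout at RT and 788 to 1105 (median 1055) at 4°C. The groups overlapped in each genotype. The log2 change was 0.25 (95% interval -0.12 to 0.61, limma, adjusted p = 0.263) in control and 0.33 (-0.02 to 0.68, adjusted p = 0.119) in BAT-Mcu-KO mice. Ppargc1b passed in control mice without the libraries of high muscle sum (0.34, adjusted p = 0.0413), which turned the BAT-Mcu-KO value to -0.094. In BAT-Mcu-KO mice it passed without mouse 1 or mouse 5 at RT (0.43 in the first case, adjusted p = 0.0443).

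Gabpa (chr16:84834925-84863779, plus strand) rose in the cold in each genotype. It was at 359 to 666 (median 553) in the control mice at RT and at 1586, 1205, 962, 757 and 804 at 4°C. BAT-Mcu-KO mice had 561 to 701 (median 603) at RT and 810 to 1155 (median 969) at 4°C. There was no overlap between temperatures in either genotype. The rise was 0.97 on the log2 scale (SE 0.17, limma, adjusted p = 5.06e-05), or 1.96-fold, in control mice and 0.65 (SE 0.16, adjusted p = 0.00238), or 1.57-fold, in BAT-Mcu-KO mice. Without control mouse 1 at 4°C, the highest of all, it was 0.81. Exons of Gabpa share 397 bp with Atp5j on the opposite strand, and the counting ignored strand. Atp5j, a subunit gene of ATP synthase, was at 2101 ± 166 at RT and 1755 ± 159 at 4°C in control mice. The partners of GABPα that form the active complex, Gabpb1 and Gabpb2, were also called higher, Gabpb1 by 0.62 for control and 0.61 for BAT-Mcu-KO mice and Gabpb2 by 0.34 in each.

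Esrrg (chr1:187608791-188214885, plus strand), an orphan receptor abundant in oxidative tissues, fell in the cold in each genotype. In control mice it was at 332 to 761 (median 543) at RT and at 271, 443, 205, 186 and 235 at 4°C. Mouse 2 at 4°C, at 443, was above the lowest mouse at RT, and the other 4 were below every mouse at RT. The change was -1.08 on the log2 scale (SE 0.23, limma, adjusted p = 0.000357). In BAT-Mcu-KO mice Esrrg was at 298 to 703 (median 569) at RT and at 189 to 337 (median 250) at 4°C, a change of -0.96 (SE 0.22, limma, adjusted p = 0.000782). Control mouse 2 at 4°C had a high muscle marker sum (32593), and without the libraries of high sum the change was -1.30 for control and -1.05 for BAT-Mcu-KO mice.

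**Figure D2:**
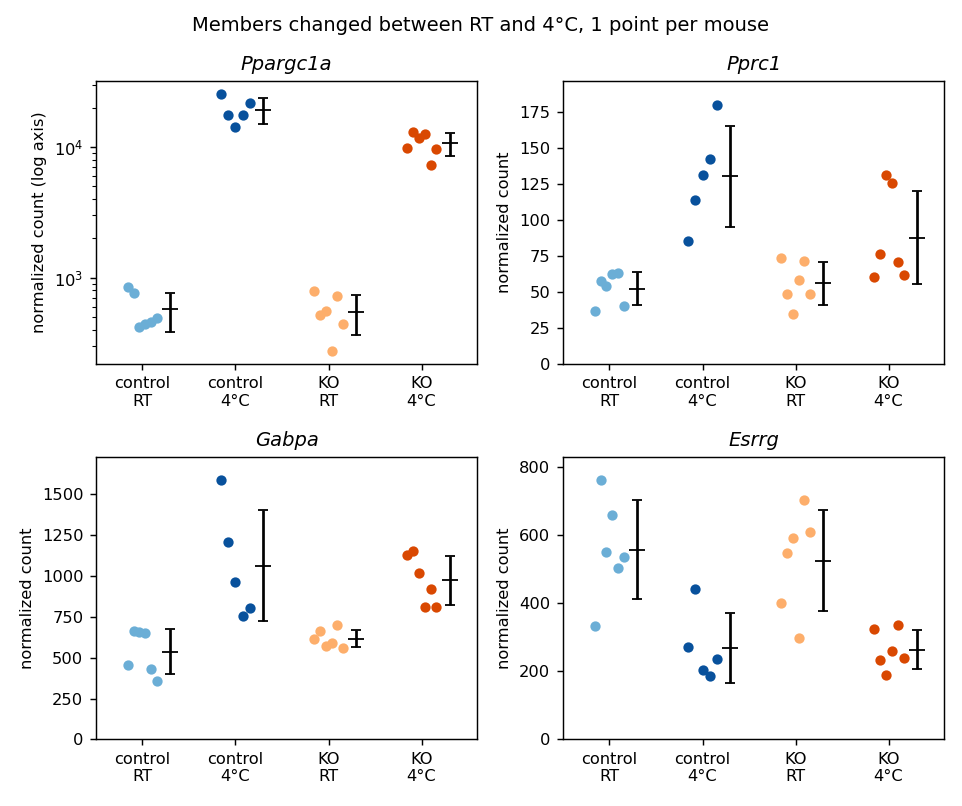
Normalized counts of the 4 genes called by cold, 1 point per mouse in each of the 4 groups, with mean and SD beside the points (log axis for Ppargc1a). Ppargc1a and Gabpa at 4°C lie above RT without overlap in each genotype, Pprc1 does so in control mice while the BAT-Mcu-KO groups overlap, and Esrrg lies lower at 4°C with some overlap.

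Esrra, the ERR receptor that forms with PGC1α a feed-forward loop on oxidative genes, was at 241 to 326 (median 272) in the control mice at RT and at 200, 351, 315, 454 and 354 at 4°C. Control mouse 1 at 4°C was below all mice at RT and mice 2, 4 and 5 were above all of them. The log2 change was 0.25 (95% interval -0.05 to 0.55, limma, adjusted p = 0.169), and it passed without that mouse (0.42, adjusted p = 0.00642). In BAT-Mcu-KO mice Esrra was at 210 to 303 (median 246) at RT and at 234 to 317 (median 308) at 4°C, a log2 change of 0.24 (-0.04 to 0.53, limma, adjusted p = 0.168). Neither genotype therefore showed a rise of Esrra that passed with all mice, and the intervals leave out a doubling.

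Nrf1, Tfam and Nrip1 showed no called difference with cold. Nrf1, a factor that binds promoters of respiratory chain genes, ran from 154 to 264 over all 23 mice, with group means of 193 to 215. Its log2 change was 0.02 (95% interval -0.22 to 0.27) in control and 0.16 (-0.07 to 0.40) in BAT-Mcu-KO mice. Tfam ran from 508 to 725 and had the smallest scatter within control mice at RT, a coefficient of variation of 7.11%. Its log2 change was -0.06 (-0.26 to 0.14) and 0.04 (-0.15 to 0.22). Nrip1 ran from 207 to 538, and its log2 change was 0.13 (-0.28 to 0.54) and 0.14 (-0.25 to 0.53). None of these passed (limma, adjusted p from 0.260 to 0.894), and the intervals of Nrf1 and Tfam leave out changes above 0.40 in either direction.

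**Figure D3:**
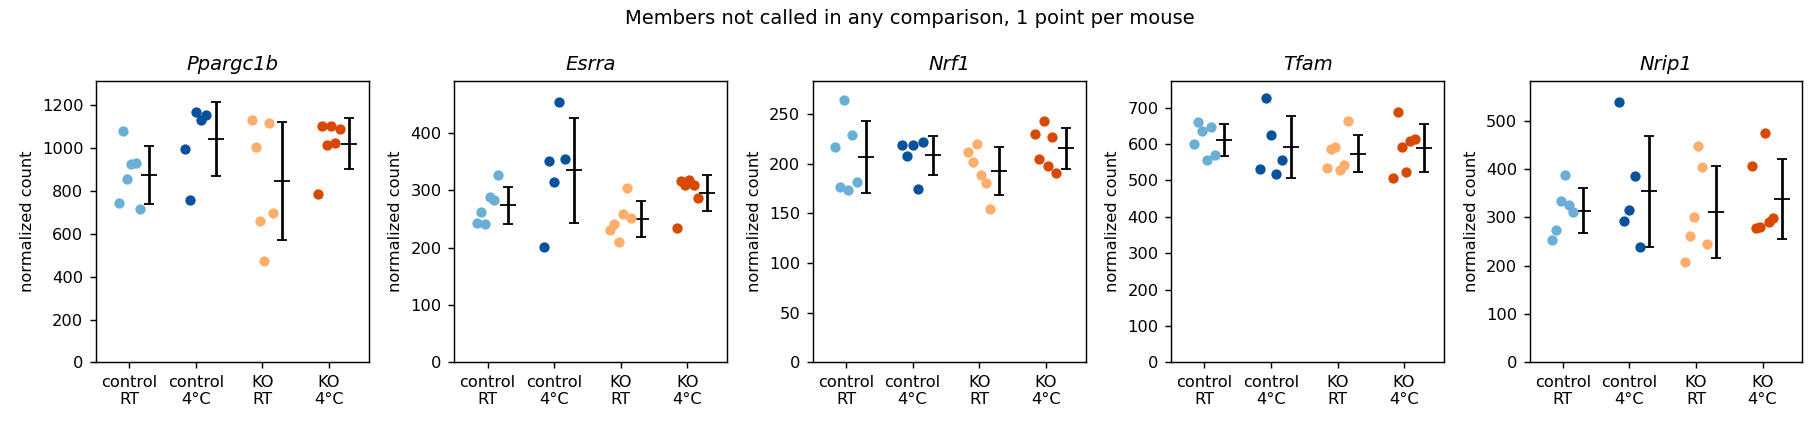
Normalized counts of Ppargc1b, Esrra, Nrf1, Tfam and Nrip1, 1 point per mouse in each of the 4 groups, with mean and SD beside the points and axes from 0. The groups overlap in every panel, and Tfam stays between 508 and 725 in all 23 mice.

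The study asked how loss of the uniporter in BAT bears on its response to cold, and the genotypes were compared at each temperature. At RT, 0 of the 9 genes were called between BAT-Mcu-KO and control mice, against 0.0478% of all genes by limma, 0.137% by DESeq2 and 0.0478% by edgeR. An unadjusted p under 0.05 was reached by 0 of the 9 with any of the 3 tools, and by 5.15% of all genes with limma. The groups overlapped for all 9, and were apart for 0.218% of all genes. The log2 differences ran from -0.13 for Esrra to 0.24 for Gabpa (limma, adjusted p of at least 0.971). That of Ppargc1a was -0.08 (95% interval -0.52 to 0.36).

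At 4°C, 0 of the 9 genes were called between the genotypes by limma, DESeq2 or edgeR, against 0.0751%, 0.157% and 0.0410% of all genes. Ppargc1a and Pprc1 had an unadjusted p under 0.05 by each of these tools, as did 6.98% of all genes by limma. Ppargc1a was at 14141 to 25446 in the 5 control mice and at 7278 to 13022 in the 6 BAT-Mcu-KO mice. All 6 BAT-Mcu-KO mice were below all 5 control mice, and 0.683% of all genes had groups free of overlap here. The log2 difference was -0.85 (SE 0.23, 95% interval -1.32 to -0.39, limma), and it did not pass across all genes (adjusted p = 0.284). Over the alternatives the adjusted p ran from 0.0562, with DESeq2, to 0.579. The ratio of the mean normalized counts was 0.553. Pprc1 was at 85.0 to 180 in control and at 60.5 to 131 in BAT-Mcu-KO mice, with 4 of the 6 BAT-Mcu-KO mice below every control mouse. Its log2 difference was -0.60 (SE 0.24, limma, adjusted p = 0.613). The other 7 genes differed by -0.14 to 0.05 on the log2 scale, with unadjusted p of at least 0.343.

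Whether cold changed a gene by a different amount in the 2 genotypes was tested by the interaction of genotype and temperature. It called 0 of the 9 genes by limma, DESeq2 or edgeR, and 0%, 0.191% and 0% of all genes. An unadjusted p under 0.05 was reached by 2 of the 9, Ppargc1a and Pprc1, with each tool, and by 5.99% of all genes with limma. The cold rise of Ppargc1a was smaller in BAT-Mcu-KO mice by 0.77 on the log2 scale (difference -0.77, SE 0.31, 95% interval -1.42 to -0.13, limma, adjusted p = 0.793). Over the alternatives (limma, DESeq2 and edgeR) the difference ran from -1.10, without the libraries of high muscle sum, to -0.65. The adjusted p was at least 0.379 throughout. For Pprc1 the difference was -0.68 (SE 0.33, limma, adjusted p = 0.831) and for Gabpa -0.32 (SE 0.24, limma, adjusted p = 0.873). For the other 6 genes it lay between -0.01 and 0.14. The interaction and the genotype comparison at 4°C share all mice at 4°C, so they are not separate evidence. No difference between the genotypes in the response of these 9 genes therefore passed the test.

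**Figure D4:**
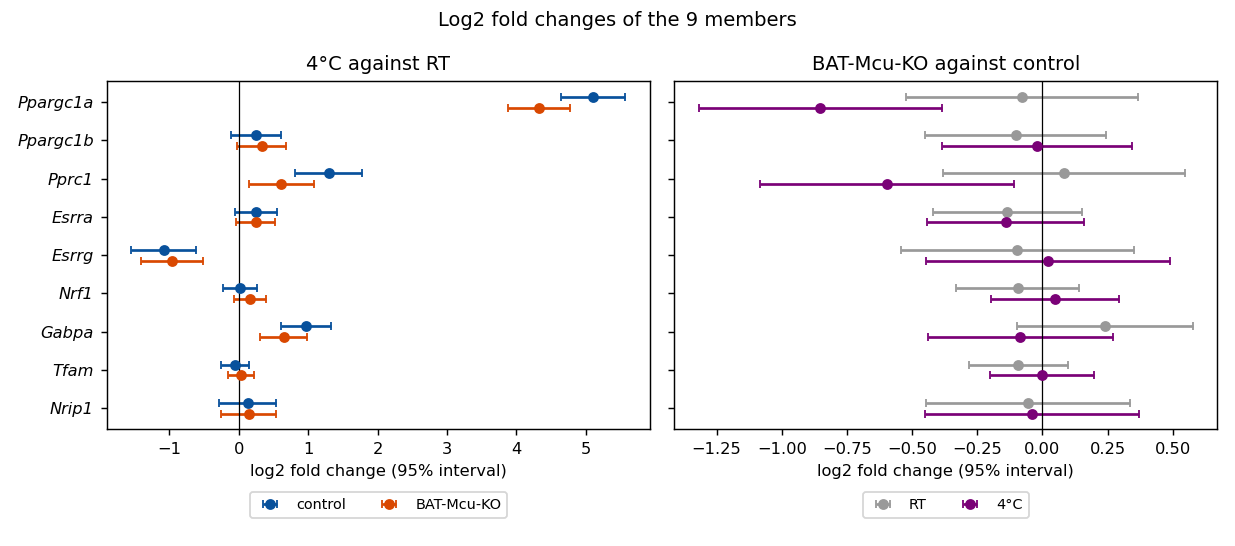
Log2 fold changes of the 9 genes with 95% intervals, 4°C against RT on the left and BAT-Mcu-KO against control on the right. On the left Ppargc1a stands far from 0 (5.10 for control and 4.33 for BAT-Mcu-KO mice), Pprc1 and Gabpa lie above and Esrrg below it, and on the right the intervals of Ppargc1a and Pprc1 at 4°C lie below 0 although neither passed across all genes.

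The genes whose profile over the 23 mice was most like that of Ppargc1a were sought among 9530 genes with a mean normalized count of at least 50. Likeness was the root-mean-square difference of the log2 profiles, each centred on its mean in control mice at RT. Dio2, the deiodinase that makes active thyroid hormone in BAT, was the closest (0.554), at 553 ± 240 in control at RT, 18303 ± 1164 in control at 4°C, 574 ± 428 in BAT-Mcu-KO at RT and 14723 ± 1498 in BAT-Mcu-KO at 4°C. Gmpr, GMP reductase, followed (0.591), and its mean went from 2238 to 52813 in control mice with cold and, in the knockout, from 1865 to 61046. The next were the poorly characterized RP23-385G21.1 (0.625), 3930402G23Rik (0.654) and E030018B13Rik (0.666). No other member was changed at least 2-fold by cold in both genotypes.

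The wider pathway was described with lists of genes. Of 16 nuclear receptors and factors that PGC1 proteins bind, or that work with the members, 7 were higher and 3 lower in the cold in control mice, and 8 higher and 4 lower in BAT-Mcu-KO mice. The median log2 change was 0.28 and 0.38, against -0.02 over all genes in each genotype. These shares were 43.8% higher and 18.8% lower in control mice and 50% and 25% in BAT-Mcu-KO mice. Of all genes 22.3% were higher and 23.7% lower in control mice, and 21.4% and 21.9% in BAT-Mcu-KO mice, which also stands beside each list below. The 7 higher in both genotypes were Pparg, Rxrg, Esrrb, Foxo1, Mef2d, Gabpb1 and Gabpb2, and the 3 lower in both were Ppara, Thra and Thrb. Esrrb, the least abundant ERR receptor, was at a median of 4 (1 to 11) in the control mice at RT and 40 (24 to 68) at 4°C, a change of 3.09 (SE 0.49, limma, adjusted p = 1.16e-05). Mef2d, a muscle and signal-responsive factor, was at 470 to 554 in control mice at RT and at 773 to 926 in the cold, a change of 0.70. Thra, the thyroid hormone receptor α, was at 242 to 333 and at 111 to 184, a change of -0.91. ERR family members thus moved in opposite directions, Esrrb upward and Esrrg downward.

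Among 26 regulators and cofactors of the PGC1 proteins, 10 were higher and 4 lower in control mice and 8 higher and 5 lower in BAT-Mcu-KO mice, with median log2 changes of 0.24 and 0.09. In control mice this is 38.5% higher and 15.4% lower, against 22.3% and 23.7% of all genes. For BAT-Mcu-KO mice it is 30.8% and 19.2%, against 21.4% and 21.9%. Higher in both genotypes were 8, Atf2, Prkaa1, Ncoa1, Crebbp, Med1, Mybbp1a, Perm1 and Zfp746, and lower in both were 4, Ncor1, Prdm16, Lpin1 and Rnf34. Perm1, a PGC1- and ERR-induced regulator of oxidative genes, was at 145 to 430 (median 223) in the control mice at RT and 1833 to 2373 (median 2046) at 4°C, a change of 3.08 (SE 0.23, limma, adjusted p = 5.89e-11). In BAT-Mcu-KO mice it was at 276 to 396 and 1133 to 2267, a change of 2.36. Perm1 is also expressed in skeletal muscle. Control mice 1 and 3 at 4°C, with the lowest muscle sums of their group, had 1891 and 2373. Control mice 2 and 5 at 4°C, with the highest sums, had 2046 and 2258. The part of muscle in the change of Perm1 was not tested. Med1, the Mediator subunit that nuclear receptors and PGC1α contact, was at 642 to 794 and, in the cold, 1332 to 1592 in control mice (1.01). Ncoa1, the coactivator SRC1, was at 339 to 428 and, in the cold, 696 to 779 (0.90), and both were called. The list holds coactivators and repressors. Zfp746 (PARIS) and Mybbp1a, known as repressors of PGC1α, were among the higher genes, and the corepressor Ncor1 and the brown fat determinant Prdm16 among the lower.

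Of 17 genes that express or replicate mitochondrial DNA, the machinery downstream of Tfam, 5 were higher and 2 lower in control mice and 3 higher and 2 lower in BAT-Mcu-KO mice. Polg2, the accessory subunit of the mitochondrial DNA polymerase, fell in control mice, where it was at 67 to 112 at RT and at 22 to 37 in the cold (-1.53, SE 0.20, limma, adjusted p = 5.81e-07), and dropped by 1.25 on the log2 scale in BAT-Mcu-KO mice. Mterf3 (0.74 in each genotype), a negative regulator of mitochondrial transcription, and Peo1 (0.81 and 0.69), the helicase Twinkle, rose. Called in control mice were also Polrmt, Polg and Lrpprc (higher), in BAT-Mcu-KO mice Tefm (higher, 0.54), and in both Mgme1 (lower). Without the libraries of high muscle sum, 4 of the 17 were called in control mice rather than 7, while calls over all 14651 genes went from 6735 to 5647. The median log2 change was -0.03 for control and 0.15 for BAT-Mcu-KO mice. With all libraries, 29.4% of the list was higher and 11.8% lower in control mice, against 22.3% and 23.7% of all genes. For BAT-Mcu-KO mice it was 17.6% and 11.8%, against 21.4% and 21.9%.

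Of 20 known targets of PGC1 and ERR, 5 were higher and 5 lower in control mice and 6 higher and 1 lower in BAT-Mcu-KO mice, with medians of -0.10 and -0.01. In control mice this is 25% higher and 25% lower, against 22.3% and 23.7% of all genes. These control counts are near the share of all genes and are not a result about the list. For BAT-Mcu-KO mice it is 30% and 5%, against 21.4% and 21.9%. Ucp1 rose in control mice, where it was at 53146 to 70028 at RT and at 140888 to 198043 in the cold (1.37, SE 0.10, limma, adjusted p = 1.01e-10). Pdk4, which restrains pyruvate oxidation, rose by 1.32 and the angiogenic factor Vegfa by 0.82, and Cycs and Fabp3 were also higher in both genotypes. Sirt3, the mitochondrial deacetylase, fell in both, by 0.58 for control and 0.64 for BAT-Mcu-KO mice. Cox8b, Sdhb, Acadm and Ucp3 were called lower in control but not in BAT-Mcu-KO mice, and Idh3a higher in BAT-Mcu-KO but not in control mice. None of the 20 was called in the test of the difference between genotypes. Without the libraries of high muscle sum, 5 of the 20 were called in control mice.

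Of the 13 mRNAs of the mitochondrial genome, 8 were in the table. None was called by limma in control mice, where 2 of the 8, mt-Nd5 (0.39, adjusted p = 0.0853) and mt-Nd6 (0.28, adjusted p = 0.0923), had an unadjusted p under 0.05. The genes mt-Nd1 (0.45, limma, adjusted p = 0.0319) and mt-Nd6 (0.47, adjusted p = 0.00461), subunits of complex I, were called higher in BAT-Mcu-KO mice. These 2 of 8 are 25% of the list, near the 21.4% of all genes called higher there. That count is not a result about the list. Reads of mt-Nd6 and of the genes on the opposite strand of the mitochondrial genome were counted irrespective of strand. For each of these 5 lists, 0 genes were called between the genotypes at RT, at 4°C or by the interaction. At 4°C, 1 of the 16, 3 of the 26, 1 of the 17, 1 of the 20 and 0 of the 8 had an unadjusted p under 0.05 by limma, beside 6.98% of all genes. None of the named genes with the smallest p in that comparison was called. Mef2d differed by -0.23, Ncoa3 by -0.29, Kat2a by -0.50, Ppara by -0.27, Tefm by 0.34, Tfb1m by 0.34, Acadm by 0.23, Sdhb by 0.18, mt-Nd1 by 0.19 and mt-Cytb by 0.16 on the log2 scale (limma, adjusted p from 0.570 to 0.897).

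**Figure D5:**
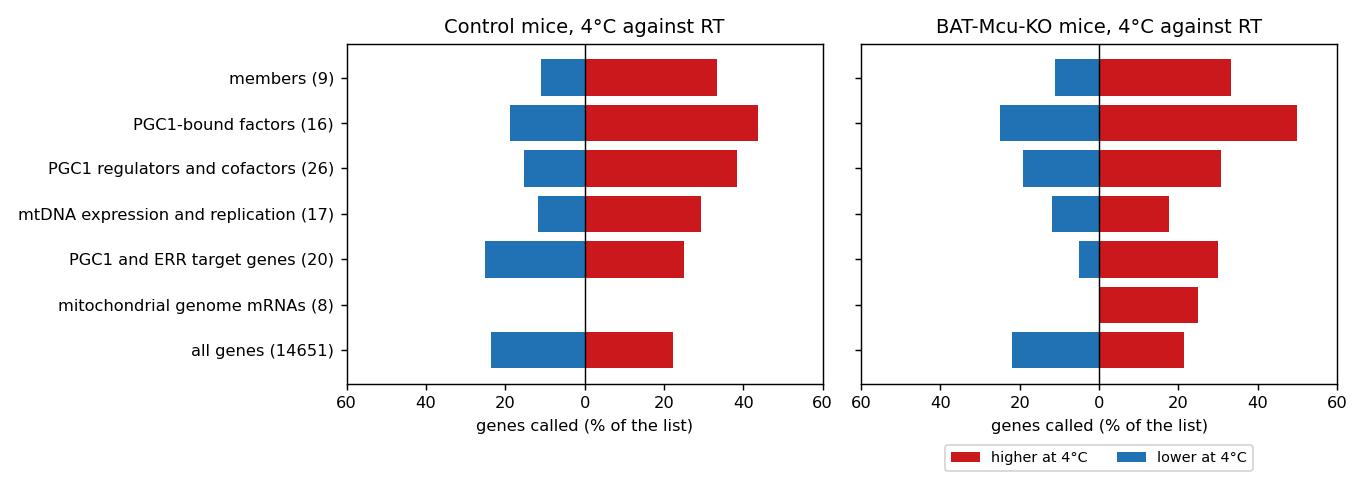
Percent of each list called higher (right, red) or lower (left, blue) at 4°C than at RT, in control and BAT-Mcu-KO mice, with the number of genes in brackets and all 14651 genes at the bottom. The members (33.3% higher and 11.1% lower in each genotype) lie among lists of 8 to 26 genes, and all genes stand at 22.3% higher and 23.7% lower in control mice and 21.4% and 21.9% in BAT-Mcu-KO mice.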

How the data were processed

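Total RNA of BAT was made into Smart-seq2 libraries and sequenced in paired ends. The authors aligned the reads with STAR 2.4.0j to mm10 (GENCODE M7), counted unique exonic reads with HTSeq irrespective of strand, and kept genes that reached 8 reads in 6 or more samples. The deposited signal is the count of each gene divided by the DESeq2 size factor. A second deposited table holds the authors' own comparisons, fold changes and p-values, and was not used. No column of sample values was left out (0). Groups and replicate numbers came from the sample labels, and each sample is the BAT of a separate mouse.

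Each value divided by that of 1 read was whole (tolerance 0.05 reads, 100% of values), so reads were recovered. Main tests were made with limma 3.58.1 (R 4.3.3), with trend, on log2(normalized count + 1), with 4 group means over 23 samples and Benjamini-Hochberg adjustment over 14651 genes. Fold changes are on this scale, which understates changes of low genes. Alternatives were pseudocounts of 0.5 and 10, a mean of at least 50, quantile normalization, 75th percentile scaling, no trend, the 2 compared groups only, the replicate number as a block, DESeq2 1.42.0, edgeR 4.0.16 and leaving out each mouse in turn. A fit without the 5 libraries of high muscle marker sum and a block fit of 2 groups were chosen after seeing the data. The tests were checked on simulated data.

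Members and lists were chosen with earlier results of these data known. All 9 members are named, with the 3 genes of each list of smallest p by cold in control mice and the 2 by genotype at 4°C. Other list genes are named as called, and Gabpb1, Gabpb2 and Sirt3 and the genes called in only 1 genotype were given after their values were seen. Positions and exon lengths are from GENCODE M21.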

Additional observations from a re-analysis of the deposited data

Results flagged for a closer look

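In the 36 groups of member values (9 genes in 4 groups), the lowest or highest mouse lay apart from the others of its group by Dixon's criterion in 3, and chance gives about 1 in 20 groups. Ppargc1b was at 788 in BAT-Mcu-KO mouse 1 at 4°C, against 1016 to 1105 in the other 5 mice. Esrra was at 234 in the same mouse, against 286 to 317 in the others. Nrf1 was at 175 in control mouse 4 at 4°C, against 208 to 222 in the other 4.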

How the results depend on the processing

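The number of members called stayed at 4 or 5 by cold in control mice, at 3 to 5 in BAT-Mcu-KO mice and at 0 for both genotype comparisons and the interaction under every alternative run. The call of Pprc1 in BAT-Mcu-KO mice was lost in 7 alternatives, and its adjusted p rose to 0.295. Of the list counts, the mitochondrial genome mRNAs called in control mice were 1 rather than 0 with quantile normalization, the replicate block and the replicate block with 2 groups (0 to 2 when 1 mouse was left out). In BAT-Mcu-KO mice they were 1 rather than 2 with 75th percentile scaling and without the libraries of high muscle sum, and 4 with only 2 groups, with or without the block (1 to 2 when 1 mouse was left out). The mtDNA genes called in control mice were 4 rather than 7 without those libraries and 4 to 7 when 1 mouse was left out, with 4 without control mouse 3 at 4°C, and the targets were 5 rather than 10. The causes were not tested.

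Over all genes, limma called 7 by genotype at RT, 11 at 4°C and 0 by the interaction. DESeq2 called 20, 23 and 28, edgeR 6 at 4°C, and the fit of 2 groups 3 at RT and 2 at 4°C. Same-numbered mice are different animals. The correlation of their deviations from the group means had a mean r from -0.10 to 0.12 per comparison. Between the genotypes at 4°C it was 0.042 to 0.218 over the 5 pairs, with 2 above 0.1. Pairs with different numbers were not compared, and whether a number marks a shared batch was not tested. The replicate block called 7 genes at 4°C and changed no other call of a member. With the block and 2 groups, Pprc1 in BAT-Mcu-KO mice was lost (adjusted p = 0.081).

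Small differences that were not called changed sign. With quantile normalization these were the interaction of Esrra (0.029), cold in control for Nrf1 (-0.043) and cold in BAT-Mcu-KO mice for Tfam (-0.045). With 75th percentile scaling they were Esrra (interaction, 0.062), Nrf1 (cold in control, -0.097), Tfam (cold in BAT-Mcu-KO, -0.016) and, by genotype at 4°C, Nrip1 (0.0013), Ppargc1b (0.021) and Tfam (0.041). With the replicate block they were Nrf1 by cold in control (-0.021, and -0.012 with 2 groups) and Ppargc1b by genotype at 4°C (0.0046). With DESeq2 and edgeR they were Esrrg by genotype at 4°C (-0.013 and -0.0045) and the interaction of Nrip1 (-0.044 and -0.039). Without the libraries of high muscle sum they were, by genotype at RT, Ppargc1a (0.28) and Ppargc1b (0.32), by genotype at 4°C Tfam (0.075), by cold Ppargc1b in BAT-Mcu-KO (-0.094) and Nrf1 in control mice (-0.010), and the interactions of Esrra (0.024), Nrip1 (-0.13) and Ppargc1b (-0.43).

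When 1 mouse was left out, the interaction ran from -0.18 to 0.12 for Esrra, -0.034 to 0.32 for Esrrg, -0.11 to 0.18 for Nrip1 and -0.073 to 0.18 for Ppargc1b. Genotype at 4°C ran from -0.092 to 0.22 for Esrrg, -0.19 to 0.073 for Gabpa, -0.014 to 0.081 for Nrf1, -0.17 to 0.12 for Nrip1, -0.13 to 0.052 for Ppargc1b and -0.048 to 0.075 for Tfam. Genotype at RT ran from -0.24 to 0.055 for Esrrg, -0.17 to 0.051 for Nrip1, -0.20 to 0.10 for Ppargc1a, -0.20 to 0.052 for Ppargc1b and -0.011 to 0.21 for Pprc1. Cold ran from -0.024 to 0.096 for Nrf1 and -0.036 to 0.26 for Nrip1 in control mice, and from -0.012 to 0.078 for Tfam in BAT-Mcu-KO mice. Members had 37 to 27209 reads, and counting error weighs most on Pprc1.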

Other observations

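Control mouse 1 at 4°C, the library with the fewest reads (7129271), held the highest Ppargc1a (25446), Gabpa (1586) and Nrip1 (538) of its group and the lowest Esrra (200.3) and Pprc1 (85.0). Without it, cold in control mice gave 4.99 for Ppargc1a, 0.81 for Gabpa, 1.44 for Pprc1 and -0.04 for Nrip1 on the log2 scale, and the difference of Ppargc1a by genotype at 4°C was -0.75. BAT-Mcu-KO mouse 1 at 4°C, the library with the most reads (21006347), held the lowest Ppargc1b (788), Esrra (234), Pprc1 (60.5) and Tfam (508) of its group. Exons of Pprc1 overlap those of Ldb1 on the opposite strand, and Ldb1 was at 85.0 ± 18.0 at RT and 59.6 ± 22.7 at 4°C in control mice. Exons of Esrra share 91 bp with Trmt112, which averaged 18.7 normalized counts in control mice at RT.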
